A study of Homo sapiens with 16 samples.

Results

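Imprinted genes are transcribed mainly from the chromosome inherited from one parent, because DNA methylation set in the egg or sperm persists at control regions near them after fertilisation. Factors such as ZFP57 and ZNF445, which bind methylated control regions and recruit TRIM28, and DNMT1 with UHRF1, which copy methylation at replication, keep these marks in embryonic cells. Human pluripotent lines carry such marks from the embryo, and the dose of several imprinted transcripts is known to differ between lines. Allele of origin was not measured, so the values below are total transcript from both chromosomes.

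The 7 genes described are PEG3, PEG10, MEST, SNRPN, NNAT, NAP1L5 and GNAS, out of 17738 genes in the table. They were taken by name. PEG3 was chosen by its rise with NODAL in these libraries, so its values against NODAL are a description without a test, and the other 6 were chosen as known imprinted genes. All 7 passed the filter on low values. RNA sequencing covered 16 libraries of H1, an established wild-type human embryonic stem cell line, in 8 groups of 2. The line was kept in E8 medium, which holds TGFb, and was moved for 24 h to E7 medium, which is E8 without TGFb. The groups were E7+NODAL+2DG, E7+ActivinA+2DG, E7+TGFb+2DG, E7+2DG, E7+NODAL, E7+ActivinA, E7+TGFb and E7. NODAL and Activin A were given at 100 ng/mL, TGFb at 1.74 ng/mL and 2DG at 3 mM, and insulin, FGF2 and transferrin were part of every medium. TGFb, Activin A and NODAL act through the same pair of signal carriers, SMAD2 and SMAD3, and 2DG (2-deoxyglucose) is a glucose analog that blocks glycolysis. The labels do not say whether the libraries of a group came from separate cultures, so p-values measure the spread between these libraries, which may be technical.

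The libraries held 14600479 to 17630329 recovered reads. All 10 embryonic stem cell markers were in the table, with a summed level of 137491 to 177513 normalised reads per library, and the 7 mesendoderm markers in the table summed to 118.5 to 1959. Of the other lists, 8 of 10 neural, 5 of 10 fibroblast and 3 of 9 trophoblast markers were in the table, with sums up to 11163, 5319 and 155.9 normalised reads per library. The other markers of these lists were not analysed here. The libraries of E7+ActivinA stood apart from each other: across genes they differed by 53.3 times what read counting alone gives (a chi-square divided by its degrees of freedom), against 1.58 to 14.7 in the 7 other groups. Because all groups share one estimate of spread, counts are also given without the 4 Activin A libraries, with and without 2DG. In bulk RNA, fewer cells of a type and less RNA per cell cannot be told apart.

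The RefSeq promoter windows of GRCh38.p14, 250 bases before to 50 after a transcript start, matched 4 of the 7 members, NAP1L5, MEST, SNRPN and GNAS. PEG3, PEG10 and NNAT had no entry. The windows were searched on both strands for TGCCGC, the hexamer that ZFP57 is known to bind when it is methylated. It was present in 16.7% of 34943 windows, and 2.75% held 2 or more matches, where overlapping matches count separately. The window with the most matches is shown for each member that had at least 2, each read 5′ to 3′ on the gene's own strand, with the hexamer, or its reverse complement, in capitals. They show the letters only, and methylation was not measured. ZFP57 itself had few reads, with 9.57 and 9.13 normalised reads in E7. Its highest library was E7+ActivinA+2DG replicate 2, at 45.1.
NAP1L5 chr4:88697780-88698079 (minus strand): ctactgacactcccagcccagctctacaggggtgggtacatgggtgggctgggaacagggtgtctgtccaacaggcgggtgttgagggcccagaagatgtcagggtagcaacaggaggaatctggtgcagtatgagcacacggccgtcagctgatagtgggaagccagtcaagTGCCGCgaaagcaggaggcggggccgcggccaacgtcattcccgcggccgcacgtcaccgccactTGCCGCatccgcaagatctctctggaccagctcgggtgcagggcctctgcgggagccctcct
MEST chr7:130491835-130492134 (plus strand): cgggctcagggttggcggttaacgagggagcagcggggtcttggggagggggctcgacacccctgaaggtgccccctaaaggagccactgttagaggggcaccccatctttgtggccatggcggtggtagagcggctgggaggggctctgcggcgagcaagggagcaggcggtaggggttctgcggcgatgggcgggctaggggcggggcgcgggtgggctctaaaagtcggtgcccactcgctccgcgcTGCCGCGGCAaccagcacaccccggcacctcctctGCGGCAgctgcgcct
SNRPN chr15:24954737-24955036 (plus strand): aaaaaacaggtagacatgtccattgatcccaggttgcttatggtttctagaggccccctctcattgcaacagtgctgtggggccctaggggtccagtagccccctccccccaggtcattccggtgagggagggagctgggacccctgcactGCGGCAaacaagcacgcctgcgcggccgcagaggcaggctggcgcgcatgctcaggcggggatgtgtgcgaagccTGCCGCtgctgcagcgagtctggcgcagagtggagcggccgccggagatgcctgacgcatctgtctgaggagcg
The NAP1L5 window held 2 matches and 18 CpG, the MEST window 3 matches and 25 CpG, and the SNRPN window 2 matches and 18 CpG, beside a median of 14 CpG over all windows. MEST and SNRPN had further windows, with as few as 0 matches, and with CpG down to 13 for MEST and 2 for SNRPN. A window picked for its matches is not comparable with the shares and the median, which are over single windows. In the MEST window the first capitals hold 2 matches that overlap. GNAS, a locus with many starts, had 1 match in 1 of its 6 windows.

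Per kilobase of exon, levels fell into a high and a low set. NNAT averaged 1164 normalised reads per kb over the 16 libraries, PEG10 926, GNAS 916 and MEST 811, whereas SNRPN averaged 141, NAP1L5 32.1 and PEG3 6.33. PEG3 and NAP1L5 therefore rest on few reads, 25 to 153 recovered reads per library for PEG3 and 33 to 91 for NAP1L5. Because the strand setting is not stated, members cannot be fully separated from genes with shared exon bases on the opposite strand. NNAT shares 85 with BLCAP, the gene it lies inside, and GNAS 1127 with GNAS-AS1. PEG10 shares 219 with SGCE, and MEST shares 228 with COPG2 and 484 with MESTIT1. SNRPN shares 814 exon bases with SNURF and 141 with SNHG14 on the same strand. How reads in shared exons were counted is not stated, so the level of SNRPN cannot be fully separated from theirs either.

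PEG3 (chr19:56810077-56840728, minus strand, hg38), a paternally expressed zinc finger gene, was the member with the largest range across libraries, 5.92-fold. It had 139 and 137 normalised reads in E7+NODAL+2DG and 132 and 125 in E7+NODAL. In medium with 2DG but no NODAL it had 38.2 and 48.4 in E7+ActivinA+2DG, 37.3 and 55.5 in E7+TGFb+2DG, and 46.5 and 43.5 in E7+2DG. In medium with neither it had 23.5 and 36.7 in E7+ActivinA, 32.5 and 34.7 in E7+TGFb, and 30.6 and 28.4 in E7. The 4 NODAL libraries, at 125 or more, all lay above the 12 others, whose highest was 55.5.

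The mean of PEG3 was 129 ± 4.75 in E7+NODAL and 29.5 ± 1.57 in E7 (SD, n = 2 each), a log2 difference of 2.09 ± 0.24 (SE) or 4.25-fold. With 2DG present the log2 difference between E7+NODAL+2DG and E7+2DG was 1.60 ± 0.24, or 3.02-fold. These values are the ones that chose the gene. Of the 7 mesendoderm markers, 2 were higher with NODAL without 2DG, MIXL1 and GSC, and the other 5 were not called. Beside them, 10.6% of all genes were higher. The summed level of the 7 was 682 and 711 normalised reads in E7+NODAL, 1815 and 1959 in E7+ActivinA, and 310 and 365 in E7. MIXL1 alone averaged 504 in E7+NODAL and 158 in E7. Of the 10 embryonic stem cell markers, 0 were higher and 5 lower in that comparison, beside 10.9% of all genes lower. The part of these markers was not tested. PEG3 differed from E7 by -0.01 (95% interval -0.53 to 0.52) with Activin A and by 0.18 (-0.35 to 0.71) with TGFb, on the log2 scale. The adjusted p was 0.99 and 0.69 by limma, against the same E7 libraries that chose the gene. Without 2DG, limma called 0 of all 16714 genes with TGFb and 10.02% with Activin A. The lack of a call with TGFb was therefore not particular to PEG3.

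**Figure D1:**
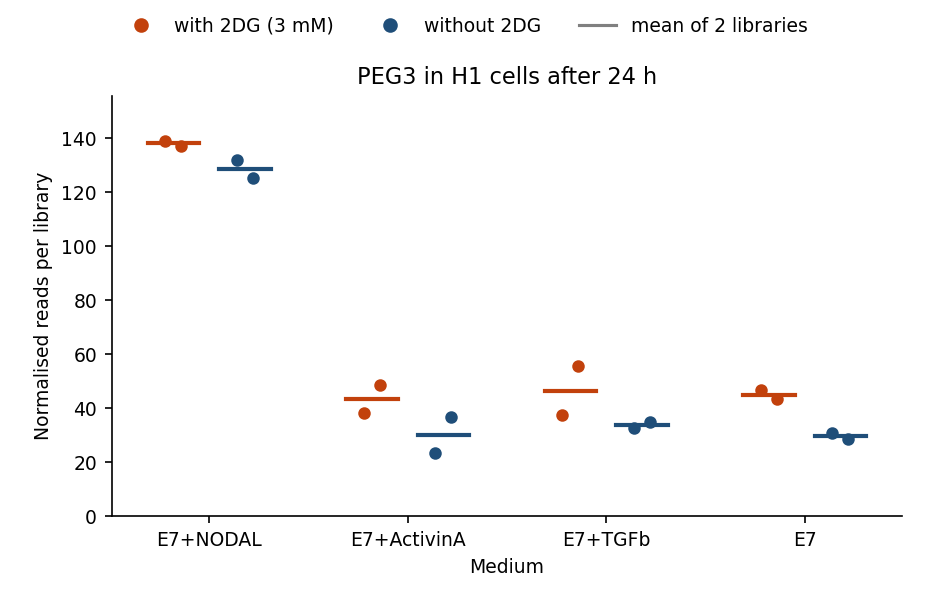
PEG3 in each library, in normalised reads, by medium, with 2DG at the left of each pair and without at the right. Points are libraries and lines are means of 2. The 4 NODAL libraries lie at 125 to 139 and the other 12 at 23.5 to 55.5.

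PEG3 was chosen by its rise with NODAL, not by its response to 2DG. The E7 and NODAL libraries enter both, so the response in E7 and the mean over media are not independent of that choice. In each of the 4 media both libraries with 2DG lay above both without. The mean of the 4 log2 responses was 0.41 ± 0.12 (SE), a 1.33-fold rise with an adjusted p of 0.017 by limma, and it stayed called in all 26 alternatives. No single medium passed: E7 gave 0.59 ± 0.24 (adjusted p 0.083), TGFb 0.43 ± 0.24 (0.31) and Activin A 0.53 ± 0.24 (0.24), while the NODAL medium, described only, gave 0.10 ± 0.24. The mean uses the NODAL libraries with and without 2DG alike. PEG3 lies inside the span of ZIM2 on the same strand, with 1264 shared exon bases, and ZIM2 was not analysed here.

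NAP1L5 (chr4:88695915-88697829, minus strand), a retrogene of the nucleosome assembly protein family that sits inside HERC3 on the opposite strand, had 36.3 and 46.1 normalised reads in E7+NODAL+2DG against 81.3 and 70.7 in E7+NODAL. It had 61.1 and 44.1 in E7+ActivinA+2DG against 85.4 and 52.7 in E7+ActivinA, 53.9 and 45.7 in E7+TGFb+2DG against 72.4 and 81.5 in E7+TGFb, and 51.2 and 35.9 in E7+2DG against 79.5 and 86.3 in E7. The libraries with 2DG lay below those without in 3 media, and the Activin A groups overlapped. Averaged over media, NAP1L5 fell by 0.70 ± 0.13 (SE) on the log2 scale, to 0.616 of its level (adjusted p 0.0011 by limma), and was called in all 26 alternatives. In E7 alone it fell by 0.93 ± 0.26 (adjusted p 0.018). That call ended without replicate 2 of E7 (adjusted p 0.11) or without replicate 2 of E7+2DG (0.14). HERC3, which shares no exon base with NAP1L5, also fell over the media, by 0.82 ± 0.19 (adjusted p 0.0047), and was not called in any one medium.

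NNAT (chr20:37521206-37523693, plus strand) encodes neuronatin, a small membrane protein of the developing brain and endocrine cells. It had 1389 and 1525 normalised reads in E7+NODAL+2DG against 1670 and 1511 in E7+NODAL, and 1644 and 1082 in E7+ActivinA+2DG against 2562 and 1636 in E7+ActivinA. It had 1210 and 1149 in E7+TGFb+2DG against 1627 and 1445 in E7+TGFb, and 1080 and 1269 in E7+2DG against 1891 and 2119 in E7. The groups were apart in E7 and in TGFb medium and overlapped in the other two. Averaged over media NNAT fell by 0.47 ± 0.10 (SE) on the log2 scale (adjusted p 0.0022 by limma, called in all 26 alternatives). In E7 it fell by 0.77 ± 0.20, to 0.585 of its level (adjusted p 0.011). That call ended without replicate 2 of E7 or without replicate 1 of E7+2DG (adjusted p 0.096 in both). The response in NODAL medium was -0.13 ± 0.20, and its difference from that in E7 was 0.65 ± 0.28 (adjusted p 0.17). Without the 4 Activin A libraries that difference was called (0.0011).

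SNRPN (chr15:24823637-24978723, plus strand), which encodes the SmN splicing protein from the Prader-Willi cluster, had 466 and 407 normalised reads in E7+NODAL+2DG against 680 and 646 in E7+NODAL, and 354 and 423 in E7+2DG against 459.6 and 534 in E7. It had 525 and 476 in E7+ActivinA+2DG against 784 and 506 in E7+ActivinA, and 362 and 369 in E7+TGFb+2DG against 352 and 363 in E7+TGFb. The libraries with 2DG lay below those without in NODAL medium and in E7, and the groups overlapped in the other two. Averaged over media SNRPN fell by 0.31 ± 0.08 (SE) on the log2 scale (adjusted p 0.01 by limma, called in all 26 alternatives). In NODAL medium the log2 response was -0.60 ± 0.17, with an adjusted p of 0.052, and 0.00069 without the 4 Activin A libraries. Reads of SNRPN and SNRPB, its close paralog, may have been shared out between them. SNRPB also fell with 2DG over the media, by 0.33 ± 0.09 (adjusted p 0.012). By medium its log2 response was -0.74 in E7, -0.40 in Activin A, -0.14 in TGFb and -0.02 in NODAL medium. With NODAL without 2DG, SNRPB lay at -0.47 and SNRPN at 0.42. Sharing of reads was not tested.

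PEG10 (chr7:94656325-94669695, plus strand), a retrotransposon-derived gene needed for the placenta in mice, had 5393 and 5566 normalised reads in E7+NODAL+2DG against 6881 and 7573 in E7+NODAL, and 5164 and 5489 in E7+TGFb+2DG against 7345 and 7429 in E7+TGFb. It had 6735 and 5994 in E7+ActivinA+2DG, inside the 5111 and 7609 of E7+ActivinA, and 5771 and 5278 in E7+2DG, overlapping the 6403 and 5324 of E7. The groups were apart in NODAL and TGFb medium only. Averaged over media PEG10 fell by 0.23 ± 0.07 (SE) on the log2 scale (adjusted p 0.025 by limma). Leaving out any of 7 libraries ended this call, with adjusted p of 0.052 to 0.064: replicate 1 of E7, E7+TGFb+2DG or E7+NODAL+2DG, or replicate 2 of E7+2DG, E7+TGFb, E7+ActivinA+2DG or E7+NODAL. In TGFb medium the log2 response was -0.47 ± 0.15 with an adjusted p of 0.062, and 0.00025 without the 4 Activin A libraries.

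MEST (chr7:130486171-130506465, plus strand), a paternally expressed gene of the alpha/beta hydrolase family, was highest in E7. It had 3924 and 3806 normalised reads in E7+NODAL+2DG, 3519 and 3698 in E7+ActivinA+2DG, 4053 and 4142 in E7+TGFb+2DG, and 4023 and 4124 in E7+2DG. Without 2DG it had 3397 and 3415 in E7+NODAL, 3788 and 3281 in E7+ActivinA, 3900 and 3875 in E7+TGFb, and 4477 and 4769 in E7. All 14 other libraries lay below both E7 libraries. MEST fell by 0.44 ± 0.08 (SE) on the log2 scale with NODAL (adjusted p 0.0038 by limma) and by 0.39 ± 0.08 with Activin A (0.0096). Both comparisons share the E7 libraries, and both calls ended without replicate 2 of E7 (adjusted p 0.051 and 0.1). A fit of only E7+ActivinA and E7 gave an adjusted p of 0.47. With TGFb the log2 difference was -0.25 ± 0.08 (adjusted p 0.16). The 2DG response averaged over media was 0.03 ± 0.04 (adjusted p 0.64).

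GNAS (chr20:58839718-58911192, plus strand), which encodes the stimulatory G protein alpha subunit and other products with different parental origins, varied least. Across the 16 libraries it ranged 1.22-fold, from 10955 in E7+TGFb replicate 2 to 13347 in E7+ActivinA replicate 1. It was called in none of the 14 comparisons, with a log2 response to 2DG of 0.08 ± 0.04 (SE) averaged over media (adjusted p 0.18 by limma, and 0.015 without the 4 Activin A libraries). Counts per gene add the products of GNAS together.

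**Figure D2:**
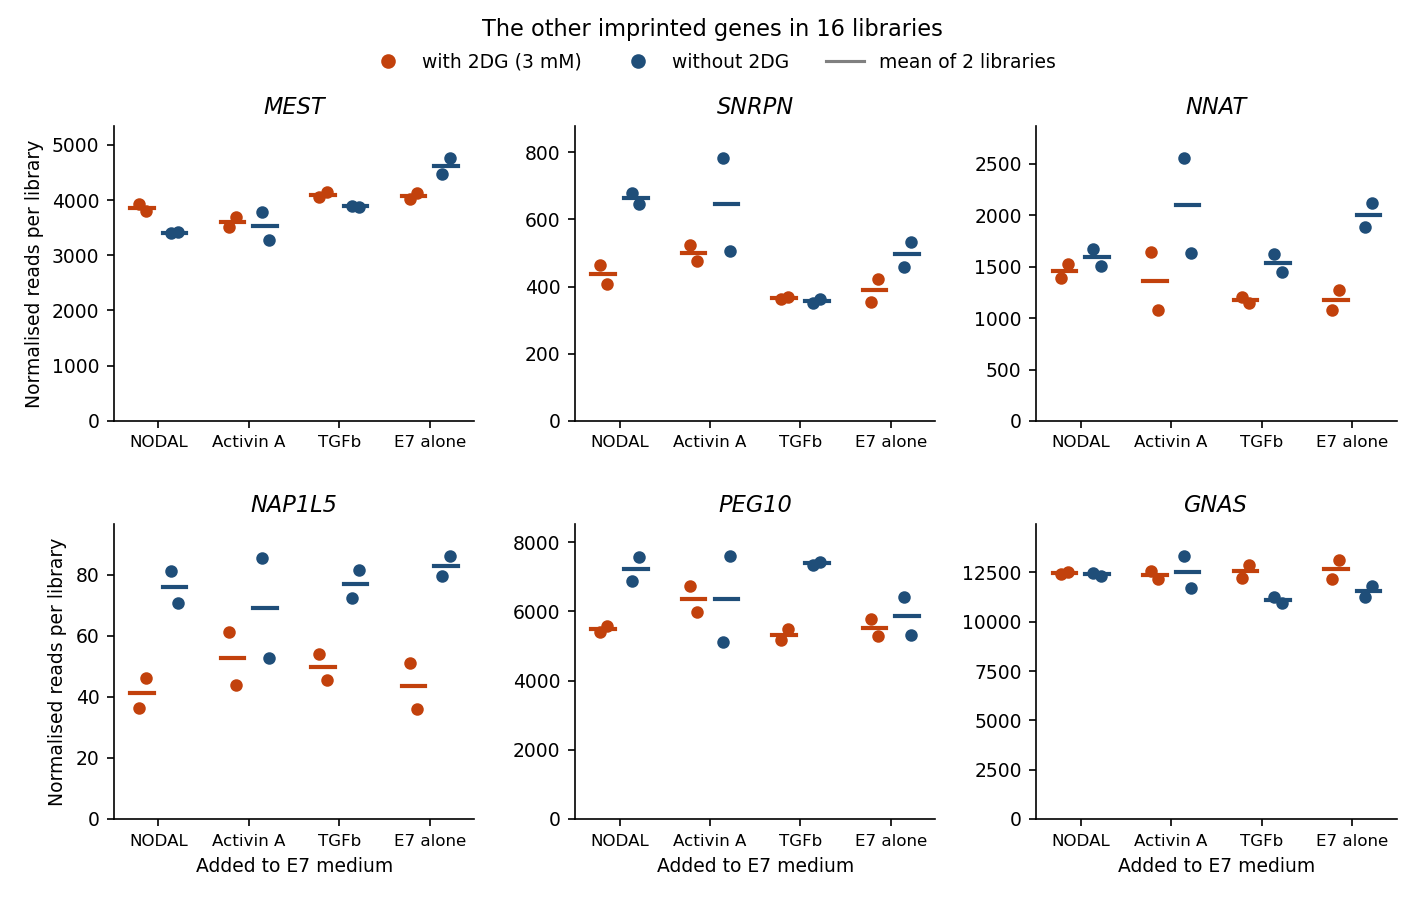
The other 6 genes in each library, in normalised reads, by medium, with 2DG at the left of each pair. Points are libraries and lines are means of 2. NAP1L5 is lower with 2DG in all 4 media by its mean, and MEST is highest in E7 without 2DG.

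Set together, the members were called with 2DG mostly where the 4 media were averaged. There 5 of 7 passed at an adjusted p under 0.05 by limma, PEG3 higher and NAP1L5, NNAT, SNRPN and PEG10 lower. Of all 16714 tested genes 38.6% passed, 19.2% higher and 19.4% lower. The call of PEG3 is not independent of its choice, because the E7 and NODAL libraries enter both. Their median log2 response was -0.23, against -0.00061 over all genes tested. In E7, 2 of 7 passed, both lower, beside 29.4% of all genes, of which 14.8% lower. In TGFb medium 0 of 7 passed (9.84% of all genes), and the unadjusted p was under 0.05 for 2, as for 4121 of all 16714 genes. The count was 0 by edgeR and 1 by DESeq2. In Activin A medium 0 of 7 passed (1.70% of all genes), where 2 members and 3383 of all genes had an unadjusted p below 0.05, and both other tools gave 0. In NODAL medium 0 of the 6 genes other than PEG3 passed (5.88%), where 4 of them and 3613 of all genes had an unadjusted p below 0.05, edgeR gave 0 and DESeq2 gave 1.

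Without the 4 Activin A libraries the counts were 6 of 7 averaged over the 3 media left (47.7% of all genes), 5 of 7 in E7 (46.0%), 4 of 7 in TGFb medium (24.9%) and 4 of 6 in NODAL medium (20.6%). Transcript length also moved with the response in some media. Over 16335 genes the rank correlation of the log2 response with exon length was 0.31 in E7 and 0.32 in Activin A medium. It was 0.0058 in TGFb medium, -0.11 in NODAL medium and 0.19 averaged over media. NNAT and NAP1L5 have the shortest exon unions of the members, 1332 and 1915 bases. For the ligands it was 0.42 with TGFb and 0.22 with NODAL without 2DG, and -0.31 with NODAL under 2DG. For the differences of the 2DG response with TGFb and with NODAL it was -0.38 each. Between the 2 libraries of a group it was 0.35 in E7 and -0.46 in E7+ActivinA. The part of length in these results and in those for the ligands was not tested. All 7 mesendoderm markers in the table were lower with 2DG over the media, beside 19.4% of all genes. Their part was not tested either. Their summed level was 118.5 and 127 normalised reads in E7+2DG against 310 and 365 in E7.

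**Figure D3:**
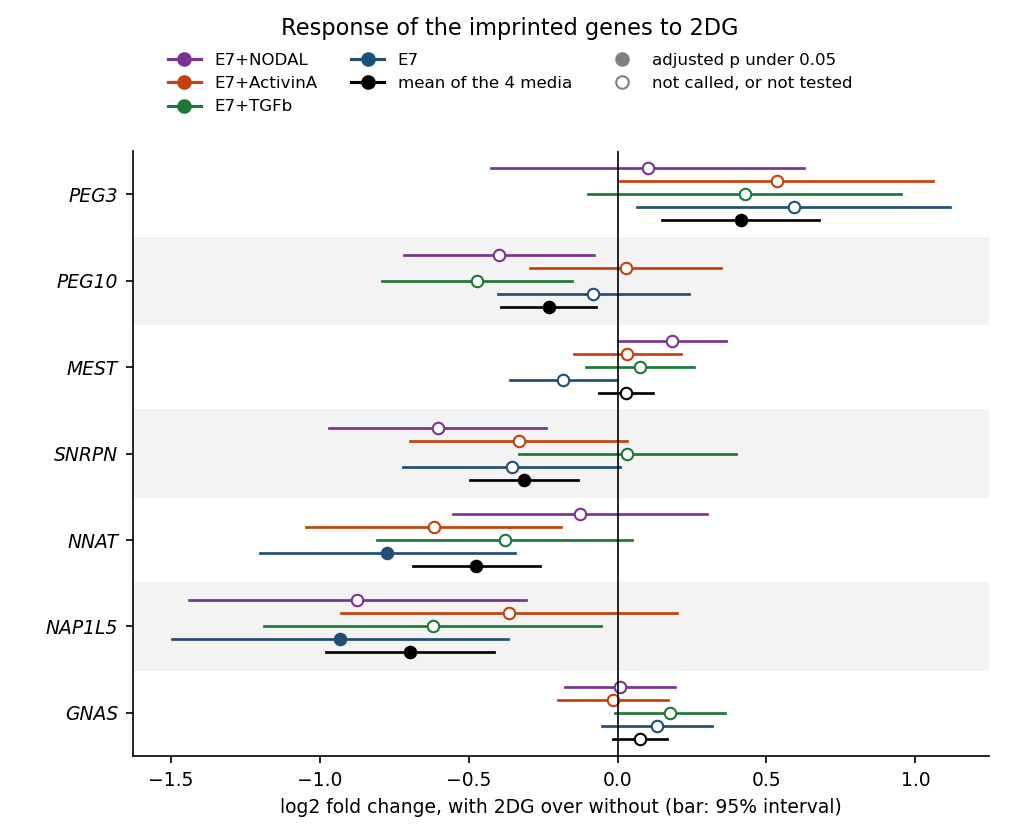
Log2 fold change with 2DG over without for each gene in each medium and averaged over the 4 media, with bars for the 95% interval. Filled points passed at an adjusted p under 0.05, and PEG3 in E7+NODAL was not tested. The averages lie at 0.41 for PEG3 and at -0.70 for NAP1L5, with GNAS and MEST near 0.

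For the ligands, each over E7 at the same 2DG state, member counts stand beside the share over all genes. NODAL without 2DG called 1 of the 6 other than PEG3, MEST lower, beside 21.5% of all genes, of which 10.9% lower, and Activin A without 2DG called 1 of 7, MEST lower, beside 10.02%, of which 4.74% lower. With libraries scaled to the same total, the genes higher with NODAL without 2DG were 2675 of 3591 called, against 1780 of 3601 in the deposited scaling, and the median of all genes was 0.14 against 0.01 on the log2 scale. With 2DG present they were 107 of 135 against 71 of 106. TGFb without 2DG called 0 of 7 and 0 of all 16714 genes (0%). An unadjusted p below 0.05 was found for 3 members and for 3771 of all genes, and edgeR and DESeq2 called 0 members. With 2DG present, NODAL called 0 of 6 (0.634% of all genes), Activin A 0 of 7 (7.52%) and TGFb 0 of 7 (0%). At an unadjusted p under 0.05 these counts were 0, 1 and 0, beside 2795, 3016 and 273 of all genes, and edgeR and DESeq2 called 0 in each. Without the 4 Activin A libraries, NODAL called 4 of 6 without 2DG (39.2% of all genes) and 1 of 6 with it (17.9%), and TGFb called 4 of 7 without 2DG (26.7%) and 0 with it. In that fit, with NODAL and no 2DG, SNRPN (adjusted p 0.005) and PEG10 (0.0047) were higher and NNAT (0.0075) and MEST (1.8e-05) lower.

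For the difference of the 2DG response from that in E7, limma called 0 of 7 with TGFb (0% of all genes), 0 of 7 with Activin A (0.0419%) and 0 of 6 with NODAL (1.87%). At an unadjusted p under 0.05 the counts were 1, 0 and 2, beside 2023, 1650 and 4341 of all genes, edgeR called 0 in each, and DESeq2 called 1 with NODAL and 0 in the other two. That gene was MEST, whose response differed by 0.36 ± 0.12 (SE), with an adjusted p of 0.083 by limma. It also passed without the 4 Activin A libraries (0.0029), a fit that called 3 of 6 with NODAL (29.1% of all genes) and 3 of 7 with TGFb (2469 genes in all).

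**Figure D4:**
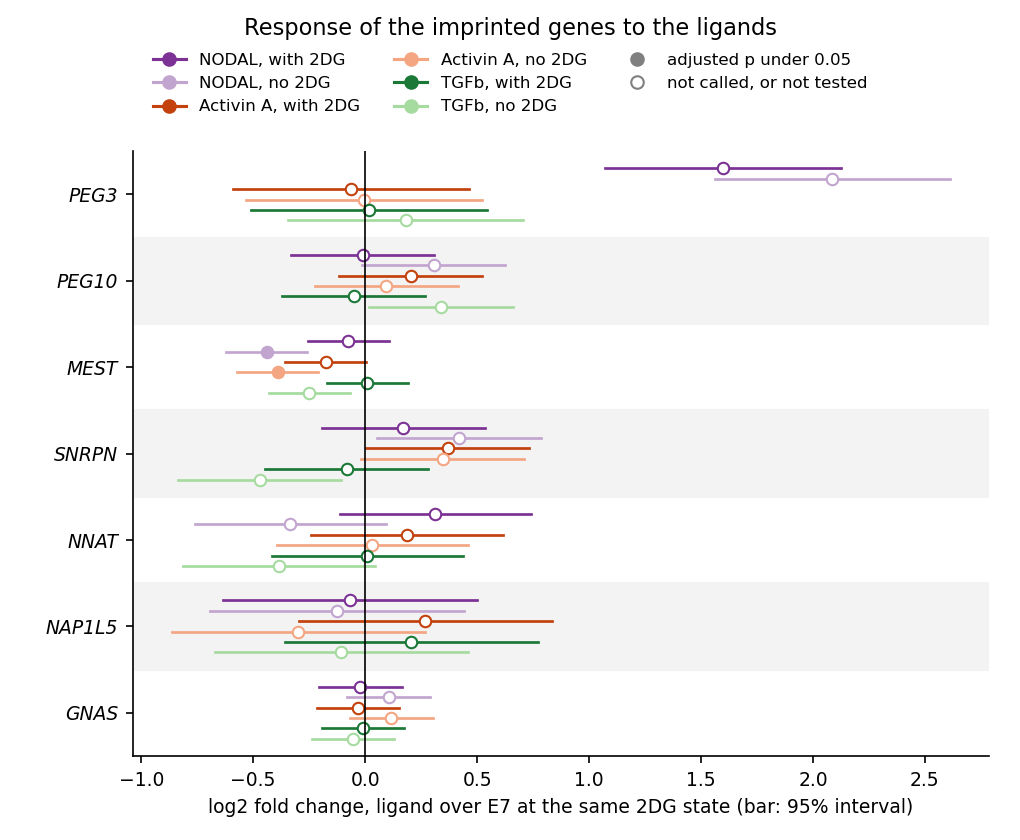
Log2 fold change of each ligand over E7 at the same 2DG state for each gene, with bars for the 95% interval. Filled points passed at an adjusted p under 0.05, and PEG3 with NODAL was not tested. PEG3 with NODAL lies at 1.60 with 2DG and 2.09 without, and MEST is the filled gene, at -0.44 with NODAL and -0.39 with Activin A.

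Other genes of the same clusters were counted from a list of neighbours and hosts, 14 of 22 in the table. With NODAL, 3 of 14 were higher and 1 lower without 2DG, where 10.6% of all genes were higher, and 1 was higher with 2DG (0.425% of all genes). PWAR6, a noncoding RNA of the Prader-Willi cluster inside SNHG14, had 6755 and 7152 normalised reads in E7+NODAL+2DG against 3759 and 2787 in E7+2DG, and 8656 and 9136 in E7+NODAL against 3209 and 3289 in E7. The NODAL libraries lay above all others in both states. PWAR6 rose by 1.10 ± 0.12 (SE) on the log2 scale with NODAL in the presence of 2DG (adjusted p 0.00068 by limma) and by 1.45 ± 0.12 without 2DG (5.1e-05). In the Activin A libraries it had 4278 and 4665 with 2DG and 4332 and 4923 without. PWAR6 was also called higher with Activin A, by 0.46 ± 0.12 with 2DG (0.028) and 0.51 ± 0.12 without (0.016). Its host SNHG14 rose by 0.56 ± 0.19 with NODAL without 2DG (0.046). SNHG14 had 12632 and 12778 in E7+NODAL+2DG against 14329 and 11722 in E7+2DG. PWAR6 and SNHG14 run on the same strand with no shared exon base, so intronic RNA of SNHG14 cannot be told apart from PWAR6.

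MAGEL2, an intronless ubiquitin ligase regulator at the far end of that cluster, had 128 and 106 normalised reads in E7+ActivinA+2DG against 45.5 and 42.4 in E7+2DG, and 116 and 121 in E7+ActivinA against 61.3 and 51.8 in E7. It rose by 1.39 ± 0.19 (SE) on the log2 scale with Activin A under 2DG (adjusted p 0.00039 by limma) and by 1.06 ± 0.19 without 2DG (0.0033). A fit of only E7+ActivinA and E7 gave an adjusted p of 0.16. With NODAL without 2DG MAGEL2 rose by 0.94 ± 0.19 (0.0054), a call that ended without replicate 2 of E7 (0.066) or of E7+NODAL (0.079). NDN, a neighbour that encodes necdin, fell with 2DG over the media by 0.55 ± 0.12 (adjusted p 0.0028), and MAGEL2 by 0.42 ± 0.10 (0.0041). SNRPN itself lay at 0.42 ± 0.17 with NODAL (adjusted p 0.092). SGCE, COPG2, BLCAP and SNURF, which shares exon bases and strand with SNRPN, were not called for 2DG averaged over media.

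**Figure D5:**
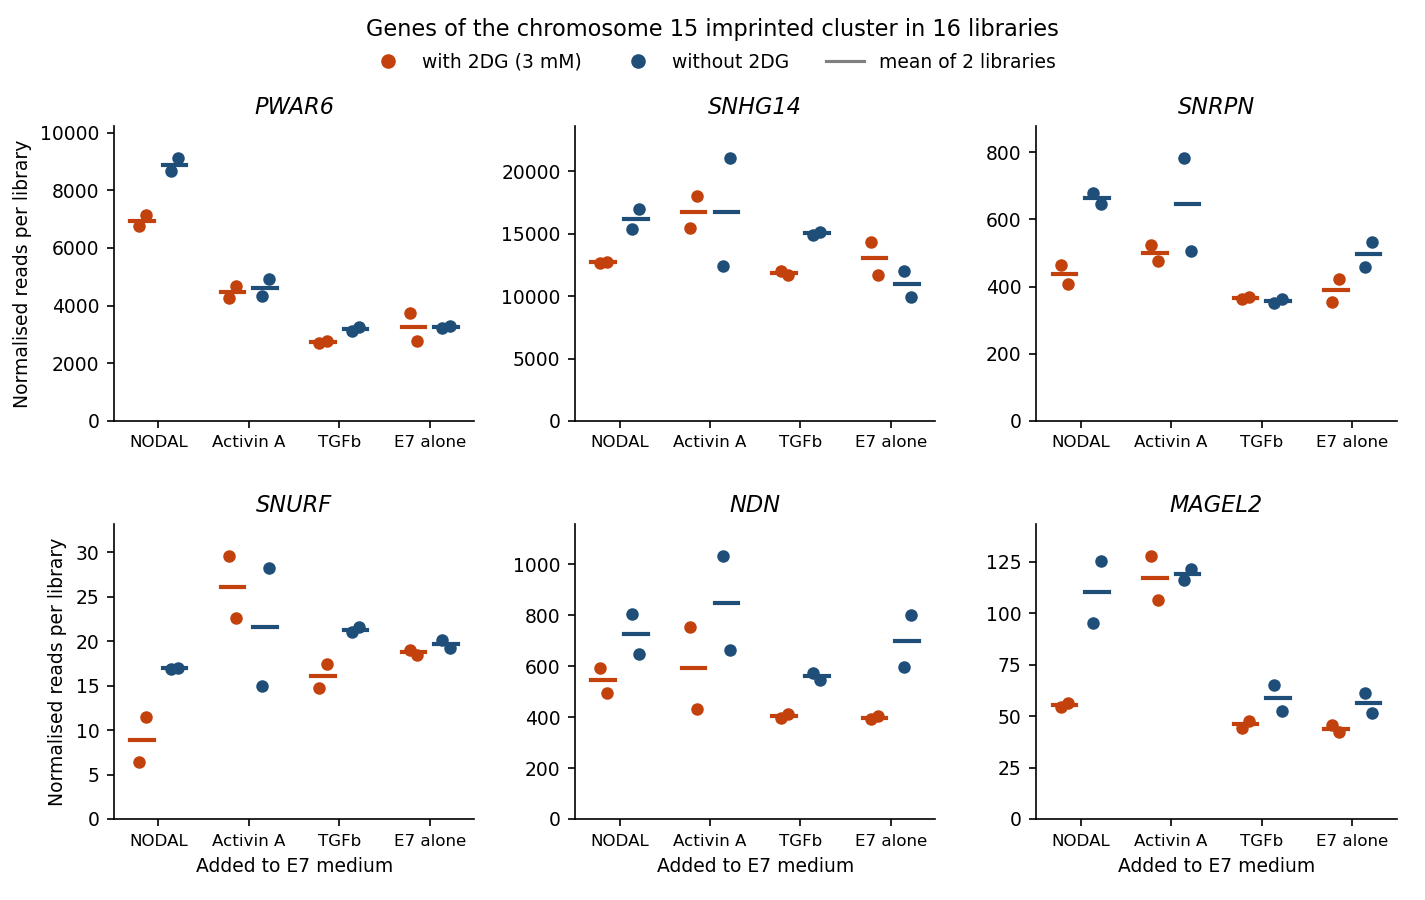
Genes of the chromosome 15 cluster in each library, in normalised reads, by medium, with 2DG at the left of each pair. Points are libraries and lines are means of 2. PWAR6 is highest in the NODAL libraries, and MAGEL2 is high in Activin A medium with and without 2DG and in NODAL medium without 2DG.

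Imprinted genes outside these clusters were counted from 2 further lists. Of 11 other paternally expressed genes tested, 4 were higher and 0 lower with 2DG over the media, with a median log2 response of 0.32, and of 12 other maternally expressed genes 2 were higher and 1 lower, with a median of -0.06, where 19.2% of all genes were higher and 19.4% lower. GRB10, a growth-limiting adaptor of the insulin receptor, had 4208 and 4436 normalised reads in E7+2DG against 2250 and 2034 in E7. It rose by 0.67 ± 0.07 (SE) on the log2 scale over the media (adjusted p 8.5e-06 by limma), and its 8 libraries with 2DG, from 3444 up, all lay above the 8 without, up to 3306. IGF2, a fetal growth factor, rose by 0.76 ± 0.14 over the media (0.0011), with 73.1 and 66.3 normalised reads in E7+2DG against 29.7 and 26.4 in E7. With NODAL without 2DG, 2 of the 11 paternally expressed genes were higher and 0 lower. Of the 12 maternally expressed genes 3 were higher and 2 lower, beside 10.6% of all genes higher and 10.9% lower. The 2 were L3MBTL1, a chromatin reader, by 1.33 ± 0.17 (adjusted p 0.00063 by limma), and IGF2, by 1.25 ± 0.29 (0.0095).

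Of 12 imprint maintenance factors, all in the table, 2 were higher and 2 lower with 2DG over the media, beside 19.2% and 19.4% of all genes. CTCFL, the germline paralog of CTCF, had 30.0 and 23.0 normalised reads in E7+NODAL+2DG against 75.0 and 107 in E7+NODAL. It fell by 0.98 ± 0.11 (SE) on the log2 scale over the media (adjusted p 1.6e-05 by limma) and by 1.74 ± 0.21 in NODAL medium (0.00056). UHRF1, the partner of DNMT1, fell by 0.45 ± 0.07 over the media (0.00028). The 2 that were higher over the media were ZNF445, by 0.36 ± 0.11 (0.022), and SETDB1, by 0.31 ± 0.09 (0.019).

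The genes whose pattern over the 8 group means was most like a member's were ranked by Pearson correlation of log2 values among 10702 genes with a mean of at least 100 normalised reads. For PEG3 they were TONSL (0.989), KANTR (0.987) and ECHDC2 (0.981). The closest was CHCHD3 for MEST (0.975), ZFYVE19 for SNRPN (0.985), H2AFJ for NNAT (0.995), FAM49A for NAP1L5 (0.991), TTC9 for PEG10 (0.968) and TBX1 for GNAS (0.969). The points share libraries and only 8 means, so these are descriptions.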

How the data were processed

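Polyadenylated RNA was sequenced as paired-end reads (Illumina NextSeq), per the labels' protocols. What the authors deposited is a signal, the reads of a gene over the size factor of the library. Tools listed in the submitters' processing notes are DESeq2 1.26.0, featureCounts 1.5.3, Trimmomatic 0.36 and STAR, with the hg38 build; the role of each, the annotation, the strand setting and the gene filter are not given in the sources used here. Whole reads were recovered for 100% of values within a tolerance of 1e-06, between 14600479 and 17630329 per library, and every listed gene had at least 1 read in each library. Relative counting error is largest for genes with few reads.

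The 16714 of 17738 genes that reached 10 in 2 or more libraries were tested with limma 3.58.1 in R 4.3.3, with a trend, on log2(value + 1), which understates changes of low genes. A single model had 8 group means, and 14 comparisons were taken, with Benjamini-Hochberg adjustment over all genes and calls at an adjusted p under 0.05. The test was checked on simulated data. Intervals are 95% intervals of the fit. Positions, exon lengths and overlaps came from GENCODE 29. Alternatives were TMM factors, the same total, another pseudocount (0.5, 8), a filter that was absent or stricter (mean 50 or more), only the libraries of a comparison, no Activin A libraries, a replicate block, and count tests of the recovered reads (DESeq2 1.42.0, edgeR 4.0.16), and each library was left out in turn. Replicate differences correlated above 0.1 in 3 of 28 pairs of groups. These were E7 with E7+2DG (0.13), E7+ActivinA with E7+ActivinA+2DG (0.24) and E7+ActivinA with E7+NODAL (0.18). E7 with E7+ActivinA gave -0.39. Whether replicate numbers pair the libraries cannot be told from these values, and the main model treated them as unpaired.

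The members and lists were chosen with earlier results of these data known. Named genes were the 7 members, up to 4 called genes per list and comparison with the largest change whose higher group averaged at least 50, named hosts and neighbours, and the 3 genes most like each member. Some genes that met this rule are not reported here, and SNRPB and the marker genes are named as references.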

Additional observations from a re-analysis of the deposited data

How the results depend on the processing

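No value that was called, in the model of all libraries or in the alternative, changed sign. Some values that were not called did, such as PEG10 with 2DG in Activin A medium (-0.26 to 0.31 on the log2 scale). The count of the 5 members called for 2DG averaged over media stayed within 1.5 times under each alternative. Without the 4 Activin A libraries 5 members were called for 2DG in E7, 4 for 2DG in TGFb medium, 4 for 2DG in NODAL medium, 4 for TGFb and 4 for NODAL without 2DG, 1 for NODAL with 2DG, and 3 each for the differences of the 2DG response with TGFb and with NODAL. Fits of only the libraries compared called 4 for 2DG in TGFb medium, 4 for 2DG in NODAL medium, 4 for TGFb and 4 for NODAL without 2DG, 0 for Activin A without 2DG, 1 for NODAL with 2DG and 2 for the difference with NODAL. Over all genes these fits called 6334, 4822, 2358, 4699, 79, 3426 and 3939, in the same order. DESeq2 called 1 each for 2DG in TGFb medium, 2DG in NODAL medium and the difference with NODAL, where it called 1768, 1229 and 1743 of all genes. Scaling to the same total gave 1 for 2DG in NODAL medium and 2 for NODAL without 2DG, and a mean of at least 50 gave 1 for 2DG in NODAL medium. Apart from NODAL without 2DG at the same total, given above, counts over all genes are not reported here for these settings. The member counts therefore show nothing particular to the members. Leaving out 1 library gave 0 to 5 for 2DG in E7, 0 to 1 in TGFb medium, 0 to 4 in Activin A medium and 0 to 3 in NODAL medium, where 1590 to 7005, 370 to 3165, 46 to 5574 and 164 to 2474 of all genes were called. It gave 0 to 3 for TGFb, 0 to 2 for Activin A and 0 to 3 for NODAL without 2DG, 0 to 1 for Activin A with 2DG and 0 to 2 for the difference with NODAL, beside 0 to 3350, 642 to 4740, 836 to 5679, 622 to 1948 and 0 to 3892 of all genes. A group with 1 library left is assumed to vary like the others. With the replicate number as a block the members called were 2 for 2DG in E7 and 5 over the media, the same counts as without it. The count over all genes with the block is not reported here. Over all genes, DESeq2 called 295 for TGFb without 2DG where limma and edgeR called 0. The depth limits PEG3 and NAP1L5 most. The cause of these changes was not tested.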
